A study of Mus musculus with 199 samples.

Results

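Processed pseudogenes are DNA copies of spliced messenger RNAs, and ribosomal protein genes have left many of them in the mouse genome. The 261 copies described here are the rows of the deposited table that carry a pseudogene biotype and a ribosomal protein symbol ending in -ps with an optional number, together with Rps3a2, Rps3a3 and Gm10243, out of 31581 gene rows. Of these copies, 256 are annotated as processed and 5 as transcribed processed pseudogenes. Each was set against its parent, the protein-coding gene named by the first part of its symbol (Rps3a1 for Rps3a2 and Rps3a3, Rpl35a for Gm10243). The copies had 58 parents, and 2 copies had no parent row. The main measure is the share of a copy, its counts as a percent of the counts of copy and parent together, in libraries with at least 20 such counts. Levels are CPM, a gene's counts scaled to the same standard total of gene counts per library (the usual CPM), with spike-in rows left out.

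The series holds 199 RNA-seq libraries, made from lines of a mouse model of small-cell lung cancer. KP1 cells (Rb1-/-Trp53-/-) gave 28 libraries of 10 laser-captured cells from spheroids in culture, 33 from colonies in livers of immunocompromised nude mice and 31 from colonies in livers of immunocompetent F1 mice. Pool-and-split controls of the same size came from KP1 spheroids (20), nude livers (35) and F1 livers (24). RPC spheroids, explanted cells labelled as a pre-cancerous stage (Rb1-/-Trp53-/-p130-/+Crebbp-/-), gave 24 libraries of 10 cells. One bulk library each came from KP1 (Rb1-/-Trp53-/-), KP2 (Rb1-/-Trp53-/-Ptch1+/lacz), KP3 (Rb1-/-Trp53-/-Axin2+/lacz) and KP5 (Rb1-/-Trp53-/- BAT-GAL), by another protocol. All groups therefore lack Rb1 and Trp53, every line is 1 line, and the line, its library preparation and its culture cannot be told apart in a comparison of RPC with KP1. The labels do not say how many animals or cultures stand behind the captures, so p-values measure only the spread between captures. F1 liver libraries numbered 1 to 28 (26 libraries) and 29 to 33 (5 libraries) are also given apart. That division follows the level of Rpl19-ps11, which was known when it was made.

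Gene counts per library ran from 718208 to 7557773 in the 10-cell groups and from 17266200 to 42447973 in bulk. The copies together held 2.43 ± 0.53% (SD, n = 28) of gene counts in KP1 spheroids, 1.81 ± 0.40% (n = 33) in nude liver, 2.52 ± 0.53% (n = 31) in F1 liver and 2.25 ± 0.80% (n = 24) in RPC, and 0.35 to 0.66% in bulk. In liver colonies the summed hepatocyte markers reached 4322 CPM (nude) and 1943 CPM (F1) and the erythrocyte markers reached 3743 and 32920 CPM, and the source of this RNA was not tested. Neuroendocrine markers, which define these tumour cells, were present in all 4 10-cell groups, with summed levels of 47.4 to 4770 CPM in liver libraries, 639 to 2586 CPM in KP1 spheroids and 699 to 1787 CPM in RPC. In such samples, fewer cells of a type and less RNA per cell cannot be told apart.

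Ribosomal proteins are the protein subunits of the ribosome, named Rps for the small and Rpl for the large subunit. Their messenger RNAs are short, abundant and poly(A)-tailed, and are a common template for the reverse transcriptase that makes processed pseudogenes. A copy usually lacks introns and a promoter of its own, and its transcribed sequence can differ from the parent at only a few bases. A read that covers none of those bases fits parent and copy equally well, and an estimating counter then divides it between them. In the deposited table, 95.6% of the copies' nonzero values and 96.2% of the parents' were not whole numbers, against 35.4% over all genes. Counts of a copy and its parent are therefore estimates that depend on each other.

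The stretches below are shown because they hold bases at which a copy with a group-dependent share differs from its parent. They come from the GENCODE M21 transcripts on GRCm38, 5′ to 3′, with the differing bases in capitals and positions counted from 1 at the 5′ end of the parent transcript. All of them lie in the parent's coding part. Rps3a1, Rps3a2 and Rps3a3 encode or copy a small-subunit protein. The first stretch below carries T349C in both copies. The second carries A778T and T801C in Rps3a2 and A793G in Rps3a3.
Rps3a1: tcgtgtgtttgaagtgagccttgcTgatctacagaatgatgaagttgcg
Rps3a2 and Rps3a3: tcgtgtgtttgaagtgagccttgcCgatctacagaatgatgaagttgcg
Rps3a1: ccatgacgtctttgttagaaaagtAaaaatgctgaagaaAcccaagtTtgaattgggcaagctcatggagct
Rps3a2: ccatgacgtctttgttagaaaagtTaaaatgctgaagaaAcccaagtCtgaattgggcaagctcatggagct
Rps3a3: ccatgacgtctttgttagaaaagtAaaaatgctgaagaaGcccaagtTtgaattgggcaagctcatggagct

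Rpl34-ps1 differs from Rpl34, a large-subunit gene, at 2 positions in all (T358C and C544G), and 5 copies of Rpl35a, another large-subunit gene, differ from it at the same single position (G246A).
Rpl34: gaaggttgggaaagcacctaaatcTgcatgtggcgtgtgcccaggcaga
Rpl34-ps1: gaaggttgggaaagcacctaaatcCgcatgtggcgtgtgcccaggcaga
Rpl34: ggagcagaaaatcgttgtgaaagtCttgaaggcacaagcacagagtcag
Rpl34-ps1: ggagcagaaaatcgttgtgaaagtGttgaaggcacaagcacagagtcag
Rpl35a: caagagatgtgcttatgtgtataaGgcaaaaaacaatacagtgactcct
Gm10243 and Rpl35a-ps2, -ps3, -ps4 and -ps6: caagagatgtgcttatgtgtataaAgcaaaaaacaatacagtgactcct

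Rpl14-ps1 is shown at 2 of its 4 differing positions (C515T and A518G) and Rpsa-ps10 at 2 of its 6 (T385C and C394T). Rpsa encodes the laminin receptor protein of the small subunit.
Rpl14: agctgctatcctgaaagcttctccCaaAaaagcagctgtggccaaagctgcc
Rpl14-ps1: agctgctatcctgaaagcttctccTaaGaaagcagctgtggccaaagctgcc
Rpsa: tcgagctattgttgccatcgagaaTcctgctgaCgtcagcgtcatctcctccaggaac
Rpsa-ps10: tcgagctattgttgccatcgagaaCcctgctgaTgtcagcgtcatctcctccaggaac

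Rpl19-ps11 differs from Rpl19 at 1 position over its 591 bases (G253A), Rps13-ps1 from Rps13 at 2 (T499C and A517G), and Rpl3-ps1 from Rpl3 at 2 (C137A and T866C). They are shown because their levels differed among F1 liver libraries or among bulk lines.
Rpl19: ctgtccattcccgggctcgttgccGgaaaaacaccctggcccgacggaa
Rpl19-ps11: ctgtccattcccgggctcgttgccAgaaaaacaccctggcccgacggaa
Rps13: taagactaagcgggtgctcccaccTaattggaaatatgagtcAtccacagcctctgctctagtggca
Rps13-ps1: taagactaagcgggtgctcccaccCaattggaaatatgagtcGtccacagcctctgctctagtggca
Rpl3: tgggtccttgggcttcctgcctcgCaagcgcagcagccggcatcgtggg
Rpl3-ps1: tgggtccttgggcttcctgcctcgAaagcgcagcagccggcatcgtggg
Rpl3: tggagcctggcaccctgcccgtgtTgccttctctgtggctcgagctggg
Rpl3-ps1: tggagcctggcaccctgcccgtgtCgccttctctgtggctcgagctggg

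The stretches of Rpl19-ps11, Rps13-ps1 and Rpl14-ps1 occur in no other annotated transcript. That of the Rpl35a copies also occurs in Gm10029 and Gm10247, whose mean levels in KP1 and RPC spheroids were at most 0.456 CPM. Both Rpl34-ps1 stretches recur in Rpl34-ps2, Gm10086 and Gm10154, all at most 0.71 CPM in KP1 and RPC spheroids. In liver colonies the highest of their means was 1.22 CPM, for Rpl34-ps2 in F1 liver. The first of them also occurs in Gm4705 and Gm7857, at most 0.329 CPM in both lines. The stretch of Rpsa-ps10 recurs in Rpsa-ps2 and Rpsa-ps9, at most 5.13 CPM in KP1 and RPC spheroids, and in AC122453.1. Rpsa-ps9 was at a mean of 15.8 CPM in nude liver and 10.6 CPM in F1 liver. The first stretch of Rps3a2 and Rps3a3 recurs in Gm5586. AC122453.1 and Gm5586 were not analysed here. The second stretch of Rpl3-ps1 recurs in Gm12816 and Rpl3-ps2, at most 0.33 CPM in KP1 and RPC spheroids. Some parent stretches also recur: that of Rps13 in Rps13-ps2, a copy at a mean of 2152 CPM in KP1 spheroids, that of Rpsa in Rpsa-ps4 and Rpsa-ps11, that of Rpl19 in Rpl19-ps1 and AC126807.1, and the first of Rpl3 in Rpl3-ps2. On GRCm38, Rps3a2 lies at chr14:88123017-88123808 (minus strand) outside other genes, Rps3a3 at chr13:108670603-108671397 in an intron of Pde4d, Rpl34-ps1 at chr6:71124610-71124963, Rpl14-ps1 at chr7:45324965-45325617 in an intron of Trpm4 on the opposite strand, and Rpsa-ps10 at chr3:150072658-150073542. Rpl19-ps11 (chr8:19492936-19493526), Rps13-ps1 (chr8:87047689-87048226) and Rpl3-ps1 (chrX:13202571-13203780) overlap no other annotated gene.

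Most copies were near silent. Counts were present for 248 of the 261 copies in at least 1 library, and 13 had none. A mean of at least 1 CPM in some 10-cell group was reached by 105 copies, at least 10 CPM by 37 and at least 50 CPM by 24. Of the 232 copies outside the naming rule, 155 stayed under a mean of 1 CPM in every 10-cell group, and the highest mean among the 232 was 27.8 CPM. The 261 rows divide by how far the annotated sequence differs from the parent, in classes set after the values had been seen, and 255 could be aligned. Over counts summed across libraries, the 11 copies without a substitution or gap against the parent had median shares of 33.4% in KP1 spheroids, 21.6% in nude liver, 34.1% in F1 liver and 32.1% in RPC. The 22 copies with 1 or 2 substitutions or a gap had median shares of 0.08 to 0.19% in these groups, the 62 with 3 to 9 substitutions 0.02 to 0.03%, and the 160 with more at most 0.0046%. A copy with a base of its own thus usually drew almost no counts, and 12 of 248 copies that were not identical differed by over 5 points in share between 10-cell groups. These 12 are Rps3a2, Rps3a3, Rpl34-ps1, Rps2-ps10, Gm10243, Rpl35a-ps2, Rpl35a-ps3, Rpl35a-ps4, Rpl35a-ps6, Rpl14-ps1, Rpsa-ps10 and Rpl19-ps11.

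**Figure D1:**
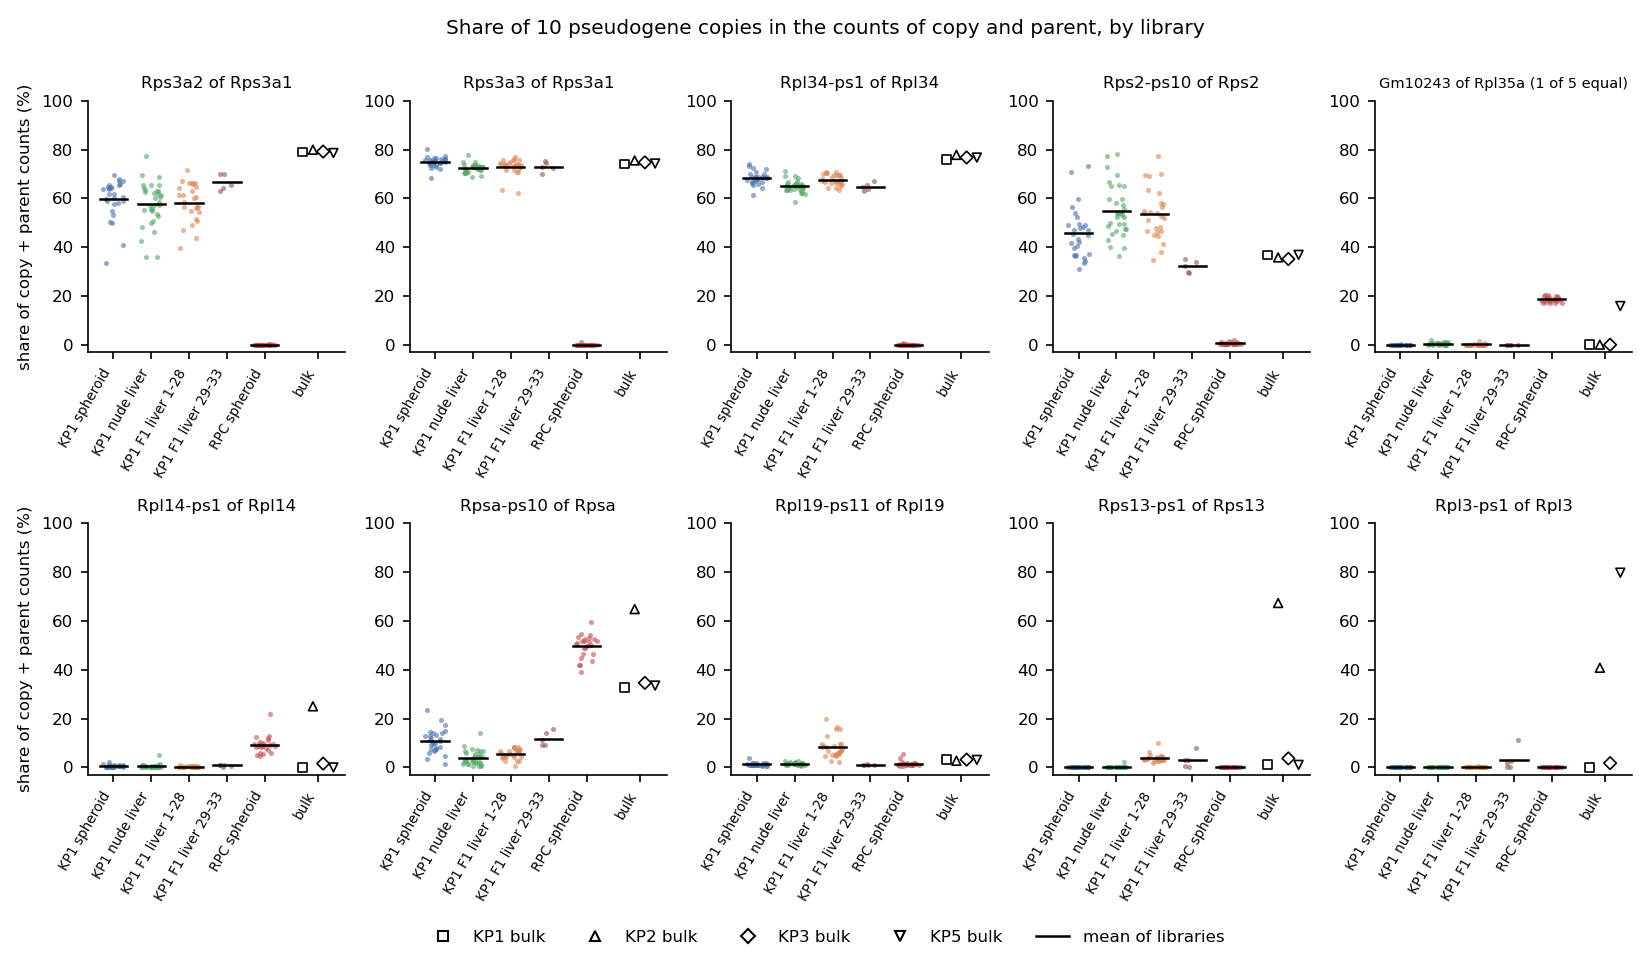
Share of 10 copies in the counts of copy and parent (percent, vertical axis) by group (horizontal axis); a point is 1 library of 10 cells, a bar the mean of the group, an open symbol 1 bulk library. Rps3a2, Rps3a3, Rpl34-ps1 and Rps2-ps10 sit above 29% in every KP1 library shown and at or under 1.96% in RPC, while Gm10243, Rpl14-ps1 and Rpsa-ps10 are highest in RPC among the 10-cell groups.

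RPC was compared with KP1 spheroids to ask how a pre-cancerous line differs from a tumour line. Rps3a2, Rps3a3, Rpl34-ps1 and Rps2-ps10 were abundant in KP1 and nearly absent in RPC, where their parents were higher. The 5 Rpl35a copies, Rpl14-ps1 and Rpsa-ps10 were far higher in RPC. Of 42 copies that passed the filter on low counts (38 with distinct counts), 8 were called higher and 12 lower in RPC by edgeR's quasi-likelihood test at a Benjamini-Hochberg adjusted p under 0.05, against 10.3% higher and 11.6% lower of all 8600 genes tested. The 8 include the 5 Rpl35a copies, whose counts were equal in every library, so they are 1 observation. A copy that reached the filter's level in enough libraries of only 1 group was tested because it is high there, and its call is given as a description. This holds for the 5 Rpl35a copies, which passed through RPC, and for Rps3a2, Rps3a3, Rpl34-ps1 and Rps25-ps1, which passed through KP1. Of the 19 copies that would have passed through either group alone, 3 were called higher and 7 lower. With equal rows counted once, 4 of 38 were higher and 12 lower. Under another scaling of library sizes (RLE) the split was 9 higher and 9 lower, and that of all genes 1131 and 826 in place of 882 and 999. With limma-voom they were 7 and 16 for the copies and 2042 and 1054 for all genes. The median log2 fold change was -0.42 over the tested copies, 0.01 over all genes and -0.24 over 81 ribosomal protein genes, of which 10 were called higher and 18 lower. For these genes the split was 14 and 15 under RLE, 9 and 27 with limma-voom, and 4 and 25 against the KP1 libraries with at least 0.1% spike-in. Among the 8 higher copies the parent was called lower for 5, the equal Rpl35a rows, and higher for 1, and among the 12 lower copies the parent was called higher for 5 and lower for 4.

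Rps3a2 ranged from 371 to 3764 CPM (median 1745) in the 28 KP1 spheroid libraries and from 0 to 6.56 CPM (median 1.25) in the 24 RPC libraries. The groups did not overlap, and 18 RPC libraries held any count of it. Its mean fell from 1772 ± 758 to 1.57 ± 1.59 CPM, described by a log2 fold change of -10.31 (SE 0.49, edgeR adjusted p = 2.10e-27), and its mean share from 59.8 ± 8.2% to 0.031 ± 0.032%. Rps3a3 ranged from 1939 to 4830 CPM (median 3195) in KP1 and from 0 to 60.2 CPM (median 1.15) in RPC. One RPC library, number 21, held the 60.2 CPM and the other 23 held at most 2.90 CPM. Its log2 fold change, also a description, was -10.05 (SE 0.54, edgeR adjusted p = 6.97e-25), and -11.42 without RPC library 21, which held 0 CPM of Rps3a2. The parent Rps3a1, from 662 to 1719 CPM in KP1 and 3092 to 7733 CPM in RPC, rose by 2.06 on the log2 scale (SE 0.15, edgeR adjusted p = 2.18e-18). Summed into 1 row, parent and copies fell by 0.42 (edgeR adjusted p = 0.033). In KP1 the 2 copies made up 82.0 ± 1.3% of the family and in RPC 0.111 ± 0.256%.

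Rpl34-ps1 gave 687 to 6215 CPM (median 2563) in KP1 and 0 to 17.0 CPM (median 1.40) in RPC. Again RPC library 21 held the highest value, and the other 23 reached 4.76 CPM. The share was 68.3 ± 2.6% in KP1 and 0.082 ± 0.156% in RPC, without overlap. As a description, the copy had a log2 fold change of -10.46 (SE 0.52, edgeR adjusted p = 2.48e-26), while Rpl34 rose by 1.15 (edgeR adjusted p = 5.29e-05) and their sum changed by -0.55 (edgeR adjusted p = 0.074), which did not pass. Rps2-ps10, a copy of the small-subunit gene Rps2, ranged from 400 to 1282 CPM in KP1 and from 2.61 to 53.4 CPM in RPC. It kept counts in all 24 RPC libraries, at a share of 0.517 ± 0.508% against 45.8 ± 10.3% in KP1. The log2 fold changes were -5.63 for the copy (edgeR adjusted p = 2.10e-19), 1.34 for Rps2 and 0.52 for their sum (edgeR adjusted p = 0.0254).

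The 5 Rpl35a copies went the other way. Each held 84.0 to 369 CPM (median 235) in RPC and 0 to 8.14 CPM (median 0.431) in KP1 spheroids, with no overlap. Each had a share against Rpl35a of 18.6 ± 1.1% in RPC, and all copies of the family together made up 53.3 ± 1.7% of its counts there against 0.196 ± 0.321% in KP1. As a description, since they passed the filter through RPC alone, the log2 fold change of each was 8.16 (SE 0.46, edgeR adjusted p = 1.38e-23). Rpl35a fell by 1.56 (edgeR adjusted p = 1.30e-08). The 5 were also called without the filter, where 3524 of 19396 genes were called higher, and this too is a description. Their sum with Rpl35a, at -0.46 (edgeR adjusted p = 0.0946), did not pass. The 5 rows have the same 333-base annotated sequence. In nude liver each was at 7.20 ± 7.14 CPM, a share of 0.431 ± 0.424%, and in F1 liver at 2.20 ± 6.96 CPM.

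Rpl14-ps1 was found at 186 to 518 CPM (median 330) in RPC and at 2.08 to 53.2 CPM (median 18.6) in KP1, and the groups did not overlap. Its share was 9.31 ± 3.46% in RPC and 0.614 ± 0.425% in KP1. The log2 fold change was 3.76 (SE 0.25, edgeR adjusted p = 2.14e-20), with -0.15 for Rpl14 and -0.04 for the sum, neither of which passed (edgeR adjusted p = 0.63 and 0.914). Rpsa-ps10 ranged from 3297 to 27977 CPM (median 6562) in RPC and from 164 to 1643 CPM (median 691) in KP1. Its share was 49.6 ± 4.8% against 10.8 ± 4.8%. Here parent and copy rose together, by 0.76 (edgeR adjusted p = 0.0477) and 3.59 (edgeR adjusted p = 2.13e-16) on the log2 scale, and their sum rose by 1.47 (edgeR adjusted p = 2.27e-05). Rps27a-ps2, a copy of the gene for a ubiquitin and ribosomal protein fusion, fell by 2.03 (edgeR adjusted p = 1.98e-04) while Rps27a fell by 1.08, from a share of 0.78% in KP1 to 0.442% in RPC.

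**Figure D2:**
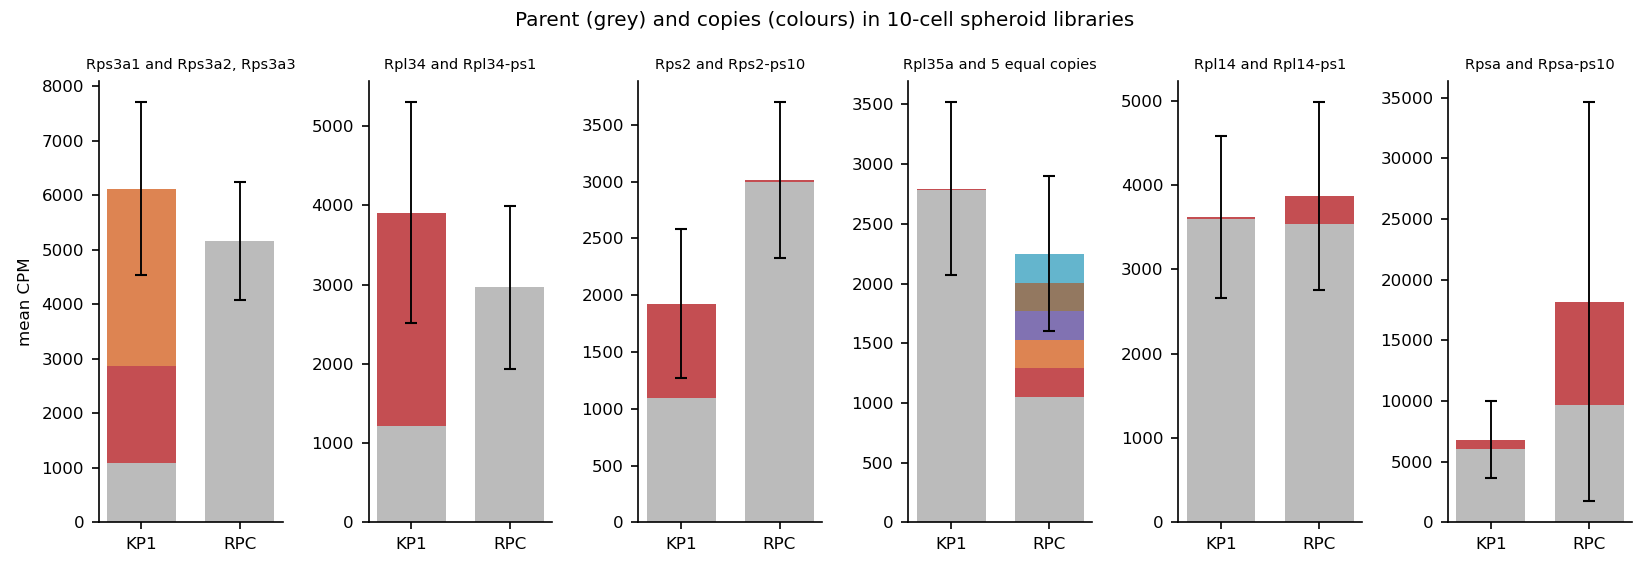
Mean CPM (vertical axis) of 6 parents (grey) and their copies (colours, Rps3a2 red and Rps3a3 orange) in the 28 KP1 and 24 RPC spheroid libraries of 10 cells, each panel with its own scale from 0. Bars with caps are the SD of the family's sum over libraries; the copies of Rps3a1 and Rpl34 are near 0 in RPC and the 5 equal Rpl35a copies, 239 CPM each, appear there.

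**Figure D3:**
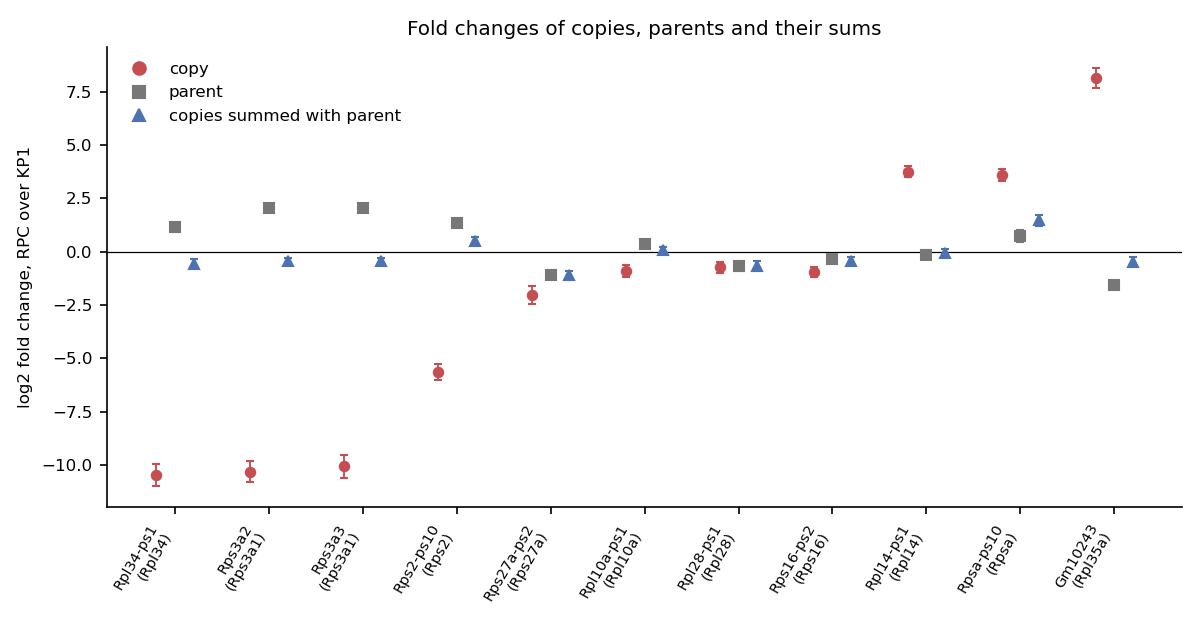
Log2 fold change in RPC over KP1 spheroids (vertical axis, edgeR, bars are 1 SE) of 11 named copies (circles), their parents (squares) and copies summed with the parent (triangles). The copies span -10.46 to 8.16, while the sums shown lie between -1.09 (Rps27a) and 1.47 (Rpsa).

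Of the 11 identical copies, 10 held counts in both lines. Of these, 5 were called lower in RPC, against 999 of 8600 genes and 18 of 81 ribosomal protein genes. Whether identical copies differ from the others in this respect was not tested. None of their 50-base windows was free of a match in another annotated transcript. In KP1 spheroids the share of summed counts of 10 of the 11 ran from 13.3% for Rpl38-ps2 to 58.5% for Rps23-ps1, and in RPC from 9.36% to 63.5% for the same rows. Rps23-ps1, a copy of a small-subunit gene, held 764 to 6217 CPM in KP1 and 996 to 6322 CPM in RPC, and fell by 0.62 on the log2 scale (edgeR adjusted p = 0.0476) beside 0.92 for Rps23. Rpl10a-ps1 fell by 0.90 (edgeR adjusted p = 0.0101), Rps16-ps2 by 0.93 (edgeR adjusted p = 0.00189), Rpl28-ps1 by 0.72 (edgeR adjusted p = 0.0368) and Rps13-ps2 by 0.60 (edgeR adjusted p = 0.0436). Rps6-ps4 (0.23, edgeR adjusted p = 0.486), Rpl31-ps8 (-0.46, edgeR adjusted p = 0.245), Rpl15-ps3 (-0.44, edgeR adjusted p = 0.428), Rpl36a-ps2 (0.73, edgeR adjusted p = 0.0582) and Rpl38-ps2 (-0.58, edgeR adjusted p = 0.275) did not pass. Without RPC library 21 the calls of Rpl28-ps1, Rps13-ps2 and Rps23-ps1 were lost (edgeR adjusted p = 0.0527, 0.0618 and 0.069). In that fit 17 copies were called in place of 20, against 813 genes higher and 937 lower of 8500. In all 10 the lowest share among the 10-cell groups was that of nude liver.

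Rpl10-ps1, the eleventh, had no count in any 10-cell or pool library. Its parent Rpl10, which encodes a late-joining large-subunit protein, gave 52234 counts over the KP1 spheroid libraries, and a count of 0 beside these allows a share of up to 0.00574% (3 counts, for counting error only). In bulk it held 127.8, 201.4, 166.4 and 175.2 CPM in KP1, KP2, KP3 and KP5, shares of 71.0%, 75.1%, 75.9% and 74.6%. For each of the 11 identical copies the lowest bulk share was above the highest share of a 10-cell group, and their median bulk shares were 62.5%, 66.2%, 66.4% and 64.2%. Bulk and 10-cell libraries differ in RNA extraction, amplification and tagmentation, and the parts of these steps were not tested.

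**Figure D4:**
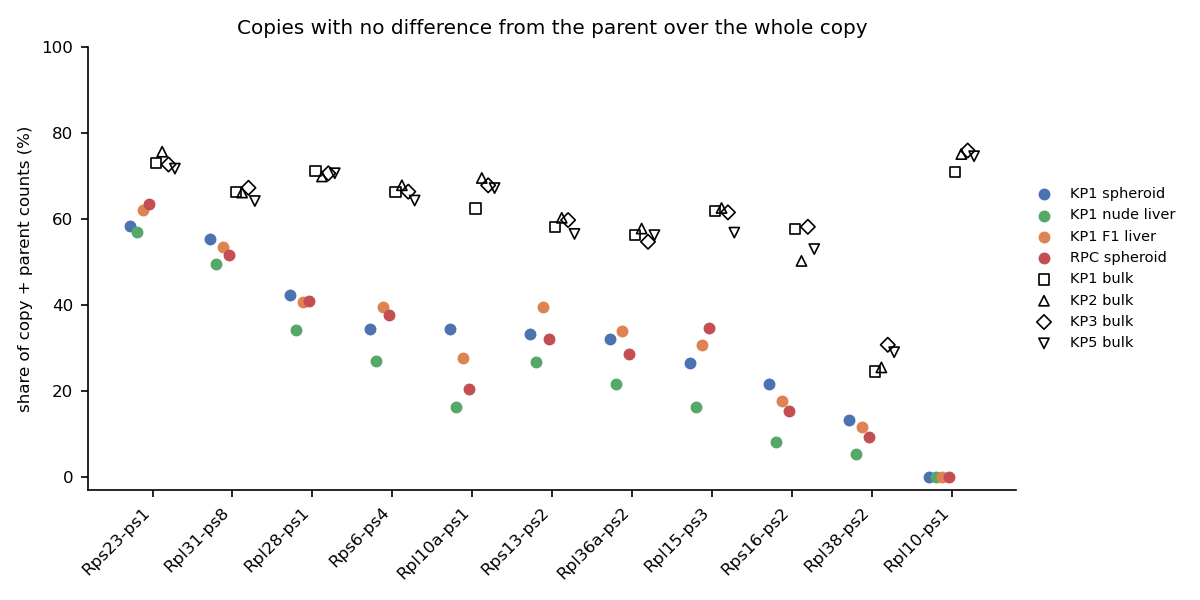
Share of the 11 copies identical to their parent (percent of counts summed over the libraries of a group, vertical axis) in the 4 groups of 10-cell libraries (filled) and 4 bulk libraries (open). Bulk lies above the 10-cell groups for every copy, and Rpl10-ps1 is at 0 in the 10-cell groups and at 71.0 to 75.9% in bulk.

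The bulk lines differed from one another at a few copies, described without a test since each line is 1 library. Intervals are 95% Wilson intervals and cover counting error only. Rps3a2 (78.6 to 79.9%), Rps3a3 (74.1 to 75.5%), Rpl34-ps1 (75.9 to 77.8%) and Rps2-ps10 (35.1 to 36.8%) had similar shares in KP1, KP2, KP3 and KP5, so the near absence seen in RPC was seen in none of these 4 lines. The Rpl35a copies had a share of 15.9% each in KP5 (14.9 to 16.9%), beside 18.6% in the 10-cell RPC libraries, and at most 0.079% in KP1, KP2 and KP3, with no count in KP3. Rpl14-ps1 had 25.1% in KP2 (24.5 to 25.6%), 1.58% in KP3, 0.149% in KP1 and no count in KP5, where 3 counts would be 0.015%. Rpsa-ps10 stood at 64.9% in KP2 (64.5 to 65.3%) and at 32.7 to 34.6% in the others. Rps13-ps1 took 67.4% in KP2 (66.4 to 68.3%), with 149 CPM beside 72.2 CPM of Rps13, and 1.04 to 3.70% in the others. Rps13-ps2, identical to Rps13 over its length, held 110 CPM in KP2 and is not part of this share. Rpl3-ps1, a copy of a large-subunit gene near the ribosome's catalytic centre, took 79.8% in KP5 (79.4 to 80.2%) and 40.9% in KP2 (40.4 to 41.3%). It had 1.77% in KP3 and no count in KP1, where 3 counts would be 0.0282%. Rpl3 itself was 230 CPM in KP5 and 597 to 631 CPM in the other lines, while Rpl3-ps1 was 909 CPM in KP5. Rpl19-ps11 had 2.75 to 3.22% in all 4.

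KP1 colonies in F1 liver were compared with KP1 spheroids, and Rpl19-ps11 and Rps13-ps1 were the copies with the highest log2 fold changes of those named. Of 34 copies tested, 6 were called higher and 0 lower, against 7.73% and 4.91% of 7309 genes. Rps13-ps1 passed the filter through F1 liver alone, so its call is a description. Of the 22 copies that would have passed through either group, 5 were called higher and 0 lower. Without the filter on low counts, 27 of 239 copies were called higher and 20 lower by edgeR, against 3201 and 1871 of 19000 genes, and the median over the copies was -0.15. The 6 are Rpl19-ps11, Rps13-ps1, Rps2-ps10, Rpl10a-ps1, Rpsa-ps10 and Rpsa-ps9. At an unadjusted p under 0.05, edgeR found 1 lower, and limma-voom called 1 lower, against 416 higher and 1331 lower of the same 7309 genes. The median log2 fold change was 0.35 over the copies and 0.22 over all genes, and 24 ribosomal protein genes of 81 were called higher and 4 lower. Against the same spheroids, F1 libraries 1 to 28 alone gave 39 of these genes higher and 5 lower, and libraries 29 to 33 alone gave 1 higher and 20 lower. Over the copies the medians were 0.53 with libraries 1 to 28 and -0.82 with libraries 29 to 33, and over all genes 0.26 and -0.17. In the former 13 of 35 copies were called higher and 1 lower, against 705 and 353 of 7086 genes. In the latter 3 of 59 copies were called higher and 0 lower, against 222 and 157 of 10381 genes.

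Rpl19-ps11 lay between 177 and 1835 CPM (median 546) in F1 liver libraries 1 to 28, and at 47.1, 85.5, 70.8, 69.3 and 71.6 CPM in libraries 29 to 33. KP1 spheroids ranged from 26.8 to 215 CPM (median 87.4), nude liver from 54.7 to 218 CPM (median 96.7) and RPC from 51.2 to 714 CPM (median 111). Libraries 29 to 33 were thus within the range of spheroids and of nude liver, and libraries 1 to 28 were mostly above it. The mean share was 8.46 ± 4.44% in libraries 1 to 28 and 1.06 ± 0.15% in 29 to 33, beside 1.33 ± 0.61% in spheroids and 1.52 ± 0.46% in nude liver. Over all 31 F1 libraries the log2 fold change against spheroids was 3.07 (SE 0.33, edgeR adjusted p = 3.64e-11), with 0.28 for Rpl19 (edgeR adjusted p = 0.214). As a description, since the division follows this copy, it was 3.39 with libraries 1 to 28 alone and -0.52 with libraries 29 to 33 alone. In the F1 pools, numbers 1 to 20 held 175 to 1865 CPM, and numbers 21 to 25 held 67.8, 52.0, 75.5, 44.4 and 47.5 CPM. No label gives this cut, which was placed on the level of Rpl19-ps11, so the pool values are a description. Pools as a group were higher than spheroid pools by 3.15 (edgeR adjusted p = 5.99e-07). No support is drawn from this copy's difference between libraries 1 to 28 and 29 to 33, or between pools 1 to 20 and 21 to 25.

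Rps13-ps1 ranged from 49.3 to 377 CPM (median 136) in libraries 1 to 28 and was 12.4, 3.25, 71.9, 189 and 70.5 CPM in libraries 29 to 33. In spheroids it ranged from 0 to 18.9 CPM (median 3.06), in nude liver from 0 to 28.0 CPM (median 1.39) and in RPC from 0 to 11.9 CPM. Every library of 1 to 28 was above every spheroid, nude liver and RPC library, and libraries 29 and 30 were within the spheroid range. The log2 fold change over all F1 libraries was 5.34 (SE 0.48, edgeR adjusted p = 1.02e-13), 5.57 with libraries 1 to 28 alone and 3.85 (edgeR adjusted p = 0.00403) with 29 to 33 alone. Rps13 changed by 0.04 (edgeR adjusted p = 0.933) and the family sum by 0.22 (edgeR adjusted p = 0.501). Its share in libraries 1 to 28 was 3.91 ± 1.52%, against 0.0915 ± 0.0695% in spheroids. In F1 pools Rps13-ps1 was 0, 2.19 and 1.88 CPM in pools 21, 22 and 25 but 631 CPM in pool 23, a share of 30.2%. The F1 pools were higher than spheroid pools by 5.67 (edgeR adjusted p = 5.50e-07), where this copy passed the filter through F1 pools alone.

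Host-cell markers varied among the same libraries. In F1 libraries 1 to 28 the hepatocyte sum ran from 0 to 1943 CPM and the erythrocyte sum from 0 to 32920 CPM, and in nude liver, where both copies were low, from 33.8 to 4322 and 0.593 to 3743 CPM. Library 25, with the lowest summed host markers of libraries 1 to 28 (54.1 CPM, erythrocyte markers at 0), held 805 CPM of Rpl19-ps11 and 262 CPM of Rps13-ps1. Library 7, with the highest (33384 CPM), held 873 and 146 CPM. The next lowest in host markers, libraries 24 and 27, held 553 and 984 CPM of Rpl19-ps11, and the next highest, libraries 6 and 12, held 276 and 401 CPM. Rps13-ps1 was at 135 and 203 CPM in the former and 137 and 104 CPM in the latter. The part of host cells in the levels of the 2 copies was not tested beyond these values.

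Rpl3-ps1 was found in F1 liver libraries 30, 32 and 33 at 102, 370 and 53.6 CPM and at 0 in libraries 29 and 31. In libraries 1 to 28 its median was 0 and its highest value 26.9 CPM, in spheroids the highest was 2.79 CPM and in nude liver 4.93 CPM. Of 55 copies tested between libraries 29 to 33 and 1 to 28, 1 was called higher, Rpl3-ps1, and 1 lower, against 0.183% and 0.102% of 9843 genes. The 1 lower is Rpl19-ps11, by whose level the libraries were divided, and nothing is read from its call. Rpl3-ps1 passed the filter on low counts with its high levels in libraries 30, 32 and 33 and with libraries 16 and 18 (26.9 and 3.99 CPM), so its call is a description too, and limma-voom called 0 copies higher. It was higher by 6.01 on the log2 scale (SE 1.37, edgeR adjusted p = 0.04), and its call was lost without library 30 (edgeR adjusted p = 0.101) or library 32 (edgeR adjusted p = 0.18). Rps2-ps10 had a share of 53.7 ± 10.3% in libraries 1 to 28 and of 29.2 to 35.2% in libraries 29 to 33, and the ranges overlapped only between 34.6 and 35.2%. Its level changed by -1.16 (edgeR adjusted p = 0.189) between them. Rpsa-ps10 had shares of 0.406 to 8.53% in libraries 1 to 28 and of 9.04 to 15.8% in libraries 29 to 33, without overlap, while its level changed by 0.33 (edgeR adjusted p = 0.861). Of the 81 ribosomal protein genes, 6 were called lower in libraries 29 to 33, and 0 by edgeR without library 29 or library 30, 2 without library 31 or 33 and 6 without library 32. The medians were -0.98 over the copies, -1.02 over these genes and -0.30 over all genes.

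**Figure D5:**
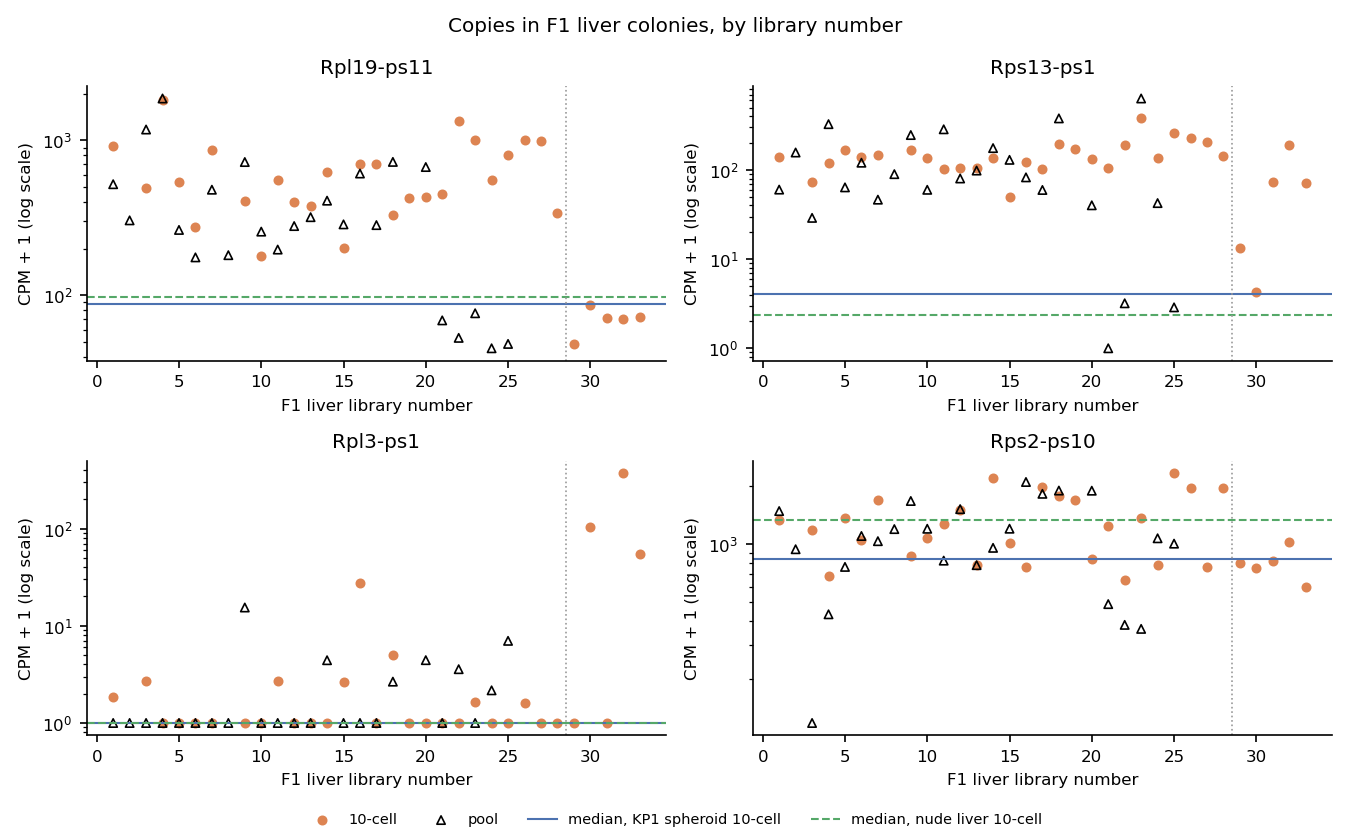
CPM + 1 (vertical axis, log scale) of 4 copies in F1 liver libraries by library number (horizontal axis); filled circles are 10-cell libraries, open triangles are pools, lines are medians of 10-cell KP1 spheroid and nude liver libraries. The dotted line parts 10-cell libraries 1 to 28 from 29 to 33; Rpl19-ps11 is at most 85.5 CPM in the latter and at least 177 CPM in the former.

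Nude liver colonies were compared with KP1 spheroids, and most copies called were lower when all libraries entered. Of 36 copies tested, 6 were called higher and 15 lower, against 17.7% and 16.3% of 7834 genes. Of the 20 copies that would have passed the filter through either group alone, 2 were called higher and 12 lower. With limma-voom 6 copies were higher and 18 lower, against 1758 and 2112 genes. Against only the spheroid libraries with under 0.1% spike-in, 13 of 44 copies were higher and 12 lower. With equal rows counted once these were 9 and 12 of 40, and over all genes 1311 and 1058 of 8340. Ribosomal protein genes were mostly lower too, with 45 of 81 called lower and 9 higher, and the medians were -0.70 over the copies, -0.51 over these genes and -0.04 over all genes. Among the 15 lower copies the parent was called lower for 10 and not called for 5. Rps27a-ps2 changed by -3.24 (edgeR adjusted p = 6.13e-07) beside -1.20 for Rps27a, and Rps16-ps2 by -2.19 (edgeR adjusted p = 2.95e-09) beside -0.48 for Rps16. Rpl38-ps2 changed by -2.08 (edgeR adjusted p = 2.57e-06) and Rps23-ps1 by -1.55 (edgeR adjusted p = 3.40e-11). Rps3a2 and Rps3a3 fell by 0.76 and 0.83 (edgeR adjusted p = 3.73e-04 and 1.30e-07) with Rps3a1, which fell by 0.63, and their shares of 57.6% and 72.5% stayed near the 59.8% and 74.9% of spheroids.

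Rpsa had the highest change of the named copies' parents in nude liver, where Rpl3 (1.21, edgeR adjusted p = 8.94e-10) and Rpl10a (1.11, edgeR adjusted p = 6.20e-08) were also higher. It ranged from 12641 to 129814 CPM in nude liver and from 2431 to 20560 CPM in spheroids, a log2 fold change of 3.06 (SE 0.24, edgeR adjusted p = 2.99e-16). Of the 6 copies called higher, 5 are copies of Rpsa and the other is Rps2-ps10 (0.52, edgeR adjusted p = 0.00959). Rpsa-ps10 rose by 1.53 (edgeR adjusted p = 4.83e-05), less than its parent, and its share was 3.96 ± 2.93% against 10.8 ± 4.8%. Rpsa-ps1 and Rpsa-ps9, with many differing bases (29 and 15), rose by 2.20 and 1.90 (edgeR adjusted p = 3.67e-05 and 4.21e-05) to means of 13.3 and 15.8 CPM. They passed the filter through nude liver alone, so these calls are a description. Their shares were 0.0287% and 0.0333%, so they were a trace beside Rpsa. The pools gave the same directions for these rows: in nude liver pools Rpsa was higher by 3.30 (edgeR adjusted p = 5.06e-23) and Rpsa-ps10 by 1.42 (edgeR adjusted p = 6.46e-08).

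Between the liver groups, F1 against nude, 19 of 36 copies were called higher and 1 lower, against 11.2% and 7.98% of 7064 genes. Over all genes the split turned to 667 higher and 684 lower under RLE scaling and to 603 and 1153 with limma-voom. The copies were then 18 higher and 2 lower under RLE and 17 and 2 with limma-voom. Of the 18 copies that would have passed the filter through either group alone, 13 were called higher and 0 lower. The 1 lower is Rpsa-ps4, named after its values were seen, and it passed through nude liver alone. The parents moved with them in most cases, with the parent called higher for 15 of the 19, and 59 of 81 ribosomal protein genes were called higher and 4 lower. F1 libraries 1 to 28 alone gave 61 of these genes higher and 2 lower, and libraries 29 to 33 alone 1 higher and 6 lower. With all F1 libraries the medians were 1.05 over the copies, 0.73 over ribosomal protein genes and 0.26 over all genes. Rps13-ps1 (6.11, edgeR adjusted p = 6.90e-12), Rps27a-ps2 (3.90, edgeR adjusted p = 8.25e-08), Rpl19-ps11 (3.11, edgeR adjusted p = 1.36e-12) and Rps16-ps2 (2.20, edgeR adjusted p = 8.58e-09) had the highest log2 fold changes of the named copies. Rps13-ps1 and Rps27a-ps2 passed the filter through F1 liver alone, so theirs are a description. With F1 libraries 29 to 33 alone Rpl19-ps11 was at -0.47 (edgeR adjusted p = 0.626), Rps27a-ps2 at 1.80 (edgeR adjusted p = 0.266), Rps13-ps1 at 4.70 (edgeR adjusted p = 0.00626) and Rps16-ps2 at 1.89 (edgeR adjusted p = 0.0304). Rps13-ps2 was 1.71 higher (edgeR adjusted p = 7.40e-10) beside 0.80 for Rps13. With F1 libraries 29 to 33 alone 3 of 52 copies were called higher and 0 lower, against 156 and 67 of 10754 genes. That fit held 5 F1 libraries, and its median over the copies was -0.25. This comparison and the 2 with spheroids share libraries, so their lists are not independent.

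In the pools, the F1 liver comparison with spheroid pools called 9 of 33 copies higher and 0 lower, against 8.94% and 2.65% of 7249 genes, with 1 lower at an unadjusted p under 0.05 by edgeR and 2 called lower by limma-voom, which called 398 of these genes higher and 2957 lower. The nude liver comparison called 9 of 33 higher and 7 lower, against 16.5% and 9.13% of 8010 genes. Under RLE scaling these were 9 and 8, and over all genes 1168 higher and 995 lower in place of 1323 and 731. With limma-voom they were 9 and 11 for the copies and 1288 and 3503 for all genes. Of the copies that would have passed the filter through either group alone, 5 of 19 were called higher and 0 lower in F1 pools, and 2 of 20 higher and 7 lower in nude pools. Of 81 ribosomal protein genes, 26 were called higher and 5 lower in F1 pools, and 18 higher and 17 lower in nude pools. Under RLE these were 23 and 9 in F1 pools and 15 and 30 in nude pools. Rps19-ps6, a copy of a small-subunit gene, passed the filter through nude pools alone and was called higher there (2.72, edgeR adjusted p = 0.0109), but nude pool 34 held 781 CPM of it and the other 34 pools at most 84.7 CPM. Without pool 34 the log2 fold change was 1.06 (edgeR adjusted p = 0.217). Rps13-ps1 in nude pools likewise had 1 high pool, number 22 at 133 CPM, with the others at most 17.4 CPM, and was not called (edgeR adjusted p = 0.439). The shares of Rps3a2, Rps3a3 and Rpl34-ps1 in the pools, means of 55.2 to 61.3%, 71.4 to 73.5% and 64.2 to 67.1%, were close to those of the 10-cell libraries of KP1.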

How the data were processed

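The deposited table holds expected counts per gene for 199 libraries, estimated by the authors with RSEM and Bowtie2, which along with the builds GRCm38 and GRCh38.p12 are named in the submitters' processing notes without versions or roles. The 10-cell and pool libraries were made by poly(A) PCR amplification and tagmentation and the bulk libraries with an oligo dT kit, per the labels' protocols. The multi-mapping settings and read length are not given in the sources used here, and both could change how reads are divided between a copy and its parent.

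CPM were computed over the 31581 gene rows, without the 92 spike-in rows. The members and lists were chosen with earlier results of these data known. Shares needed at least 20 counts of copy and parent together. Tests used counts rounded to whole numbers in edgeR 4.0.16 (R 4.3.3) over all genes: filterByExpr, TMM scaling, the quasi-likelihood test and Benjamini-Hochberg adjustment, with a threshold of 0.05. A family fit summed all copies with the parent into 1 row. For each copy tested, the libraries of each group at the filter's CPM were counted. Values are mean ± SD over libraries, and SE is that of the log2 fold change. Wilson intervals and the limit of 3 counts cover counting error only, since the reads carry no molecular identifiers that were used here. Named copies are Rps3a2, Rps3a3, Gm10243, Rpl35a-ps2, Rps13-ps1 and Rpl19-ps11, those reaching a mean of 50 CPM in a 10-cell group or 50 CPM in a bulk library, and for each comparison and direction up to 6 with the smallest adjusted p, a log2 fold change of at least 1 either way and 10 CPM in the higher group.

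Alternatives were RLE scaling, no filter, limma-voom (limma 3.58.1), the library number as a block, a minimum of 100 counts, subsets of libraries and summed families. Between groups, libraries with the same number correlated at a median of -0.0043 to 0.0045 in their deviations, so the numbers were taken not to pair them. No 2 libraries of a group agreed within sampling noise (lowest chi-square per degree of freedom 29.1). On simulated counts for RPC against KP1 (8600 genes), the test recovered 12.3%, 56.2% and 85.7% of genes changed 2-, 4- and 8-fold. For F1 liver libraries 29 to 33 against 1 to 28 (9843 genes) it recovered 11.3% of those changed 8-fold. Sequences and coordinates come from GENCODE M21 on GRCm38, aligned to the parent transcripts in Python 3.11.15. Rps2-ps10 is shown without sequence.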

Additional observations from a re-analysis of the deposited data

Results flagged for a closer look

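In F1 liver libraries 29 to 33, the gap between the highest library and the next was divided by the range of the 5. It was above Dixon's critical value of 0.71 for 4 of the 21 named copies tested. Chance gives about 1 in 20 for 1 copy, but the copies share these 5 libraries and are not separate trials. All 4 were highest in library 32, so no excess over chance is read from their number. Rpl10a-ps1 was at 2422 CPM there, with the next library at 1617 CPM. Rps16-ps2 was at 1215 CPM beside 577 CPM. Rpl3-ps1 was at 370 CPM beside 102 CPM, and its call between libraries 29 to 33 and 1 to 28 was lost without library 32. Rpsa-ps9 was at 10.5 CPM beside 5.44 CPM.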

How the results depend on the processing

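Over the named copies, 624 of 788 log2 fold changes under an alternative kept their direction and their side of the threshold, 60 lost the call and 45 gained one. A further 59 changed sign, 17 of them called in at least 1 of the fits and 42 called in neither. All 522 shares recomputed with 100 counts or from summed counts moved by less than 1 SD. Without a filter on low counts many more copies were tested. The called copies were then 50 in place of 20 for RPC and 47 in place of 6 for F1 liver. They were 95 in place of 21 for nude liver and 64 in place of 20 for F1 against nude liver. For pools they were 30 in place of 9 (F1) and 58 in place of 16 (nude). For F1 libraries 29 to 33 against 1 to 28 they were 8 in place of 2. Over all genes the same fits called 3524 higher and 2591 lower of 19396 for RPC. They called 3201 and 1871 of 19000 for F1 liver and 5420 and 3011 of 20050 for nude liver. For F1 against nude liver it was 2620 and 3674 of 19872. For pools it was 3154 and 2070 of 18440 (F1) and 5351 and 2537 of 20053 (nude). For the F1 libraries by number it was 607 and 55 of 17515. For F1 liver against spheroids the count was 2 with only the spheroid libraries holding at least 0.1% spike-in. That fit called 124 genes higher and 50 lower of 8897. The count was 14 with F1 libraries 1 to 28, against 705 and 353 of 7086 genes. It was 3 with libraries 29 to 33, against 222 and 157 of 10381 genes. F1 against nude liver gave 3 with libraries 29 to 33, against 156 and 67 of 10754 genes. Fewer libraries enter each of these fits. For libraries 29 to 33 against 1 to 28, limma-voom called 1 copy, against 41 genes higher and 14 lower of 9843. Leaving out 1 of the 5 libraries gave 1 to 2 copies, with 1 without library 30 or library 32. Over all genes those fits called 7 to 21 higher and 2 to 9 lower.

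With the library number as a replicate block, 20, 5, 19, 14, 8 and 13 copies were called in the 6 comparisons. These stood in place of 20, 6, 21, 20, 9 and 16. Over all genes the block fits called 1256 higher and 763 lower of 8383 in RPC and 282 and 620 of 6949 in F1 liver. They called 1339 and 1398 of 7640 in nude liver and 367 and 520 of 6731 for F1 against nude liver. In pools they called 219 and 1618 of 6769 (F1) and 898 and 2029 of 7278 (nude). The numbers gave little sign of pairing. In RPC against KP1, 3 of 24 correlated best with their own number, and 1 pair was above 0.1, at 0.308. No pair was above 0.1 in the other comparisons.

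Summing copies with the parent changed the sign of 9 copies in RPC, 2 in F1 liver and 2 in nude liver. Of these, 1, 2 and 1 were called in neither fit. Those called in at least 1 fit were, in RPC, Gm10243, Rpl35a-ps2, Rpl35a-ps3, Rpl35a-ps4 and Rpl35a-ps6 (-0.46), Rpl10a-ps1 (0.062), Rpl14-ps1 (-0.038) and Rps2-ps10 (0.52), and in nude liver for Rpl10a-ps1 (0.79). With F1 libraries 29 to 33 alone, 11 of 22 named copies changed sign against spheroids. Of these, Rpl19-ps11 (-0.52) and Rps2-ps10 (-0.18) had been called with all F1 libraries and the other 9, such as Rpl34-ps1 (0.10 to -1.26), were called in neither fit. Against nude liver 8 of 22 changed sign, 6 of them called with all F1 libraries: Rpl19-ps11 was at -0.47, Rpl28-ps1 at -0.44, Rpl31-ps8 at -0.66, Rpl34-ps1 at -0.72, Rpl36a-ps2 at -0.44 and Rpl38-ps2 at -0.10; the cause was not tested. Under RLE scaling the median change over all genes went from 0.01 to 0.16 in RPC, from 0.46 to 0.32 in F1 pools and from 0.16 to -0.06 in nude pools. With limma-voom it was 0.44 in RPC, -0.44 in F1 liver, -0.27 for F1 against nude liver, -1.45 in F1 pools and -1.09 in nude pools. In alternatives chosen after seeing the data, libraries with over 10% spike-in were left out, or equal rows were counted once. The former gave 6, 25 and 21 copies for F1 liver, nude liver and F1 against nude liver, and the latter 16 for RPC. In the former, 541 genes of 7265 were higher and 344 lower, then 1238 and 1347 of 7794, and 743 and 496 of 7144. A library of 10 cells limits copies under about 1 CPM, where few counts stand behind a value.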

Other observations

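Some copies outside the naming rule showed group or library differences, and they are named after their values were seen. Rpl10-ps6, a copy of Rpl10, had a share of 1.63% of summed counts in KP1 spheroids, 2.02% in nude liver, 4.33% in F1 liver and 5.22% in RPC. In F1 liver its mean of 18.9 ± 52.3 CPM (SD, n = 31) included a library at 249 CPM. Rps12-ps19 had 2.74% in nude liver and at most 0.584% in the other 10-cell groups, with 1 nude liver library at 187 CPM beside a mean of 6.47 CPM. Rps15a-ps8, with 30 substitutions against Rps15a, had 16.7 CPM and a share of 4.80% in KP2 bulk, and at most 0.102% in the other bulk lines. Rpl5-ps1 had 26.6% in each of F1 liver libraries 30 and 32, where its parent Rpl5 was at 70.7 and 16.2 CPM, and 3.25 to 5.75% in libraries 29, 31 and 33. The differences in share were not tested. In level, Rpl10-ps6 was higher in F1 than in nude liver by 2.42 on the log2 scale (edgeR adjusted p = 0.0135) and did not pass against spheroids in F1 liver (1.66, edgeR adjusted p = 0.0869) or RPC (1.16, edgeR adjusted p = 0.107). Rpl5-ps1 did not pass between F1 libraries 29 to 33 and 1 to 28 (0.15, edgeR adjusted p = 0.976).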
